A study of Drosophila melanogaster with 9 samples.

Results

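The 65 genes described here carry symbols of the male reproductive system of Drosophila melanogaster. They comprise 19 Acp genes (accessory gland proteins), 28 Sfp genes (seminal fluid proteins) and 18 Mst genes (male-specific transcripts). The rule that chose them used only their names and took all protein-coding genes on chromosome arms X, 2L, 2R, 3L and 3R of the Release 6 gene table whose symbol starts with Acp, Sfp or Mst followed by a digit, out of 13842 protein-coding genes on those arms. The choice of this group was made with earlier results of these data known. Arm 2L holds 28 of the 65 genes, 3R holds 19, 3L holds 10, 2R holds 8 and X holds none. The symbols Acp1 and Acp65Aa are exceptions to the label, since they stand for adult cuticle proteins, and neither gene had a peak in any library.

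The mark measured was trimethylation of lysine 27 of histone H3 (H3K27me3), by chromatin immunoprecipitation and sequencing in larvae of the third instar raised at 25 °C, with chromatin fixed in 1% formaldehyde. The 6 immunoprecipitated libraries formed 3 groups of 2. They came from wild-type males, from males of the genotype roX1[ex6]roX2[9-4], in which both roX genes are knocked out, and from females of wild type. The study compared the knockout males with their wild-type counterparts, and the females add a comparison of the sexes on the wild-type genotype. The labels give no strain for the wild type and do not say whether the replicates came from separate larvae. A p-value here thus rests on the spread between these libraries, which may be technical, and on spread pooled over genes in the fit.

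H3K27me3 is laid down by Polycomb repressive complex 2 and accompanies stable silencing of genes, often over domains that span many kilobases around developmental regulators. The roX genes make the noncoding RNAs of the dosage compensation complex, which acts on the male X chromosome. Acp and Sfp proteins are made mainly in the adult male accessory gland, which secretes the seminal fluid that changes egg laying, sperm storage and mating receptivity in the female, and most Mst genes are transcribed in the male germ line and serve sperm formation. The accessory gland is formed during metamorphosis, whereas the larval testis already holds spermatocytes.

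Per library, between 4784 (second wild-type male) and 10619 (second female) peaks had been called, covering between 11420 kb (second knockout male) and 17764 kb (second female) of X, 2L, 2R, 3L, 3R and 4. Both female lists were longer than all male lists in peak number, and both knockout lists were the shortest in covered length. Because no read counts come with the peaks, depth is unknown and a covered percent of 0 means only that no peak was called there. In chromatin of whole larvae, fewer cells with the mark and less mark per cell cannot be told apart. The knockout of roX1 and roX2 was not checked here, since peak lists do not show whether a sequence is present.

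Most of these genes had no H3K27me3 peak in any library. The covered percent, which is the share of the gene body under peaks, was 0 in all 6 libraries for 47 genes (72.3%), against 8932 (64.2%) of the 13922 protein-coding genes on the 6 arms when chromosome 4 is included. Among these 47 were Acp26Aa, which encodes ovulin, a stimulator of ovulation, Acp36DE, needed for sperm storage, Acp62F, a protease inhibitor, and Mst77F, a protein of sperm chromatin. For the 47 genes the closest peak of any library lay a median of 2.16 kb away, under 1 kb for 14 genes and over 10 kb for 5. Mst89B was the farthest, at 39.5 kb, followed by Mst85C at 24.3 kb, Acp95EF at 16.8 kb, Acp32CD at 14.9 kb and Acp36DE at 13.2 kb.

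Of the 18 genes with a peak, 9 had one in a single library and 9 in at least 2 libraries. By family they were 3 of the 19 Acp genes, 8 of the 28 Sfp genes and 7 of the 18 Mst genes. Arm 3R held 7 of them, 2L held 6, 2R held 3 and 3L held 2. The genes are short, with a median length of 554 bp (168 to 3587 bp) against 2163 bp for all protein-coding genes, and 50 of the 65 are under 1000 bp, compared with 19.2% of all genes. Genes with and without a peak had similar median lengths, 545 and 554 bp. A short gene tends to be either wholly inside or wholly outside a peak, and of the 390 values (65 genes in 6 libraries) 336 were 0, 29 were 100% and 25 lay between.

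**Figure D1:**
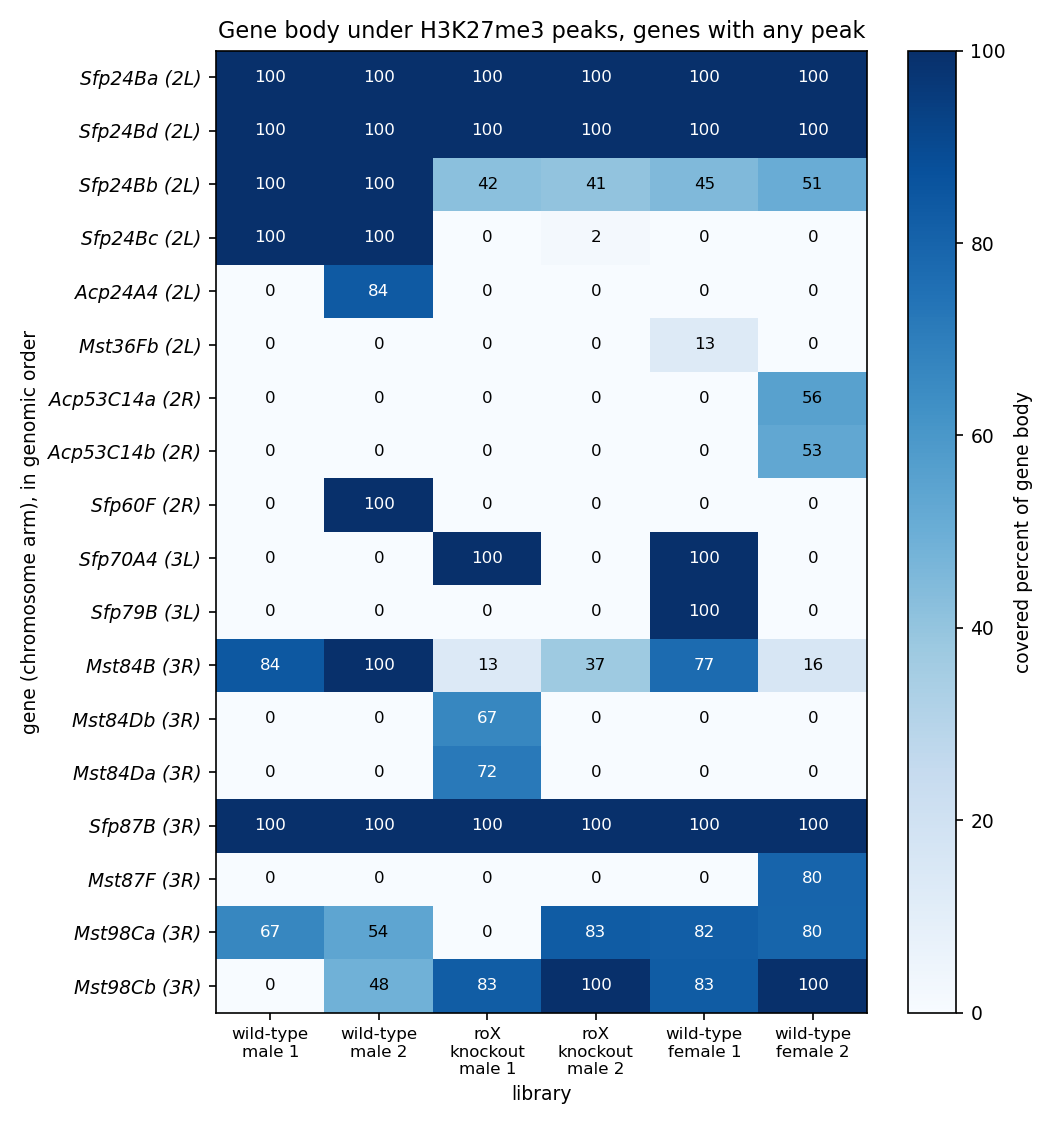
Covered percent of the gene body (colour scale 0 to 100%, values printed) for the 18 genes with a peak in any library, in genomic order down the vertical axis, in each of the 6 libraries along the horizontal axis. Sfp24Ba, Sfp24Bd and Sfp87B are at 100% throughout, Sfp24Bb and Sfp24Bc are at 100% only in the wild-type males, and 9 genes are above 0 in a single library.

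The term marked is used below for genes with a covered percent of 50 or more. By this rule the wild-type male libraries had 7 and 9 marked genes of the 65, the knockout libraries 7 and 5, and the female libraries 8 and 9. As shares these were 10.8% and 13.8%, 10.8% and 7.69%, and 12.3% and 13.8%, beside 5.27% and 5.16%, 4.05% and 3.10%, and 6.72% and 8.51% of all protein-coding genes. By this rule the share was above that of all genes in each of the 6 libraries. The share with any peak at all ran otherwise. It was 10.8% and 15.4% of the 65 genes in wild-type males, 13.8% and 12.3% in knockouts and 15.4% in both females, beside 11.7% and 11.4%, 12.7% and 9.91%, and 23.7% and 28.01% of all genes. It was thus below that of all genes in the first wild-type male and both female libraries. A 50% rule is met more easily by a short gene than by a long one, and the shares were not compared at matched length. With 2 libraries a group, an exact permutation test (two-sided) of such a value cannot give a p below 0.333, and none was made.

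**Figure D2:**
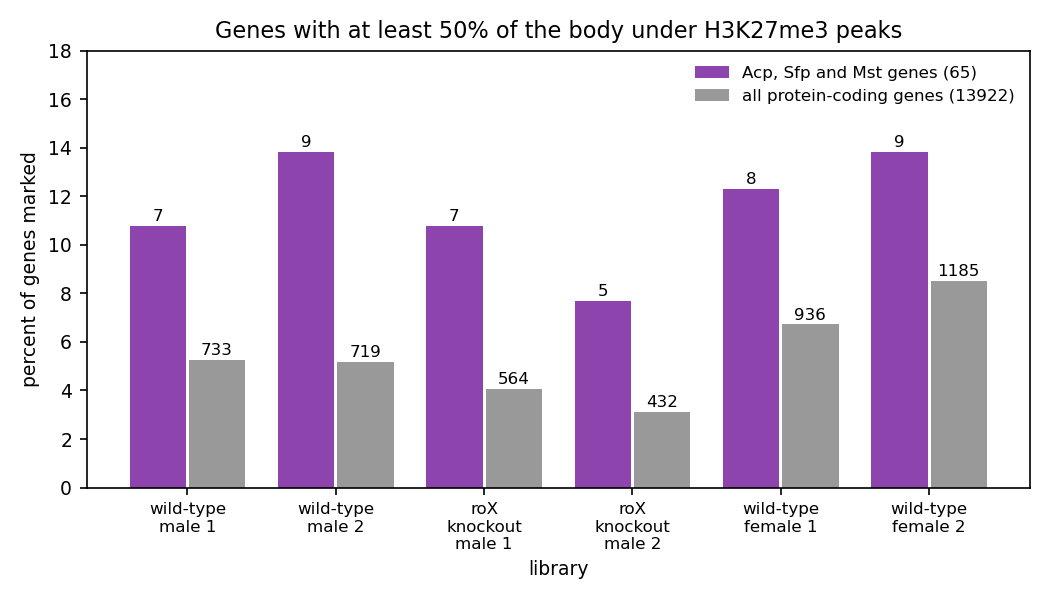
Percent of genes with at least 50% of the body under peaks (vertical axis) in each library (horizontal axis), for the 65 Acp, Sfp and Mst genes and for all 13922 protein-coding genes, with the number of genes above each bar. Between 5 and 9 of the 65 genes were marked in a library.

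Marked genes were mostly Sfp and Mst genes, as are most of the 65 (28 Sfp and 18 Mst genes). Sfp genes supplied 5 and 6 of the marked genes in wild-type males, 4 and 3 in the roX knockouts and 5 and 4 in females. Mst genes supplied 2 and 2, 3 and 2, and 3 and 3. Acp genes were marked only in the second wild-type male library (1 gene) and the second female library (2 genes). Over all 6 libraries 17 of the 65 genes were marked at least once, and 3 of them, Sfp24Ba, Sfp24Bd and Sfp87B, in all 6. By family, 3 of 19 Acp, 8 of 28 Sfp and 6 of 18 Mst genes were marked at least once. Of these 8 Sfp genes, 4 form the Sfp24B row described below. Among all 13922 protein-coding genes 1706 were marked at least once and 306 in all 6.

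The 3 genes marked throughout lie inside larger genes for transcription factors. Sfp24Ba (2L, 3667977 to 3668551), Sfp24Bd (3668691 to 3669134), Sfp24Bb (3669261 to 3669775) and Sfp24Bc (3670131 to 3670581) are seminal fluid protein genes that stand in a row within the span of Drgx (2L, 3662745 to 3692114), a homeobox gene. Sfp87B (3R, 12273126 to 12273521) lies within the span of svp (3R, 12258737 to 12302785), which encodes a nuclear receptor. All coordinates are those of Release 6, the same as dm6, and the gene table used gives no strand and no exons, so whether these genes sit in introns was not examined.

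Along the Sfp24B row the groups differed at one end only. Sfp24Ba and Sfp24Bd were covered over 100% of their length in all 6 libraries. Sfp24Bb had 100% cover in either library of wild-type males, 41.9% and 40.6% in the roX knockouts and 44.9% and 50.7% in the females. Sfp24Bc likewise had 100% cover in either library of wild-type males, 0% and 1.996% in roX knockout males, and 0% in both female libraries. For the latter pair of genes the wild-type males were above every other library, while knockout males and females lay close together. How many of all genes separate in this way was not counted, here or for the genes below.

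In the fit with limma over all genes, Sfp24Bb was lower in knockout than in wild-type males, with a difference of -58.7 percentage points (SE 2.48, adjusted p = 0.00654, n = 2 and 2), and lower in females, with -52.2 points (adjusted p = 0.00394). Leaving out one or the other wild-type male library raised the limma adjusted p of Sfp24Bb in the knockout comparison to 0.063 and 0.0515, and in the female comparison it rose to 0.0526 without the first. Sfp24Bc differed from wild-type males by -99.0 points in knockout males (SE 1.37, limma adjusted p = 0.000426). In females it differed by -100 points (limma adjusted p = 0.000205). Its values sat at or near 0% and 100%, with SDs of 0 (wild-type males), 1.41 (knockout males) and 0 (females). Sfp24Ba, with no spread, still had an SE of 1.16, so much of the SE of Sfp24Bc was borrowed from other genes. Its adjusted p is therefore not a measure of replicate spread alone. For Sfp24Bb both wild-type males sat at the 100% limit, and the SDs were 0.961 (knockout males) and 4.12 (females). Counted with 1 kb on each side of the gene, Sfp24Bc no longer passed in limma, at adjusted p = 0.202 in knockout males and 0.0555 in females. With these flanks Sfp24Bb still passed in limma, at adjusted p = 0.0213 in knockout males and 0.0061 in females. Sfp24Bd, unchanged over its body, was then also called lower in both comparisons, and Acp24A4 in females (limma adjusted p = 0.022). Which genes of the row passed thus depended on the window. Between females and knockout males Sfp24Bb differed by 6.50 points (limma adjusted p = 0.247) and Sfp24Bc by -0.998 points (limma adjusted p = 0.608). Sfp24Bb stood near the 50% limit in several libraries, and its 50.7% in the second female library was just enough to count as marked.

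The peaks themselves show where this difference arose. A single peak of 28.6 kb (2L, 3657923 to 3686527) covered the whole row in the first wild-type male library and one of 24.0 kb (3657915 to 3681865) in the second. In the other 4 libraries the peak over Sfp24Ba ended between 3669469 and 3669521, inside Sfp24Bb, a spread of 52 bp. There followed a gap to the next peak of 1.92 and 1.10 kb in knockout males and 1.65 and 1.63 kb in females. Sfp24Bc lay within that gap, apart from its last bases in the second knockout library.

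Most of the stretch remained under peaks in all libraries. Of the 23.9 kb shared by both wild-type male peaks, 88.1% and 86.8% was covered in the knockout males, in 3 and 4 peaks, and 80.2% and 82.3% in the females, in 5 and 4 peaks. Drgx itself was covered over 87.6% and 85.9% in wild-type males, 68.1% and 68.2% in the roX knockouts and 64.8% and 62.1% in females. The lower values of Sfp24Bb and Sfp24Bc thus go with gaps in one domain, and the pair is not independent evidence of 2 changes.

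**Figure D3:**
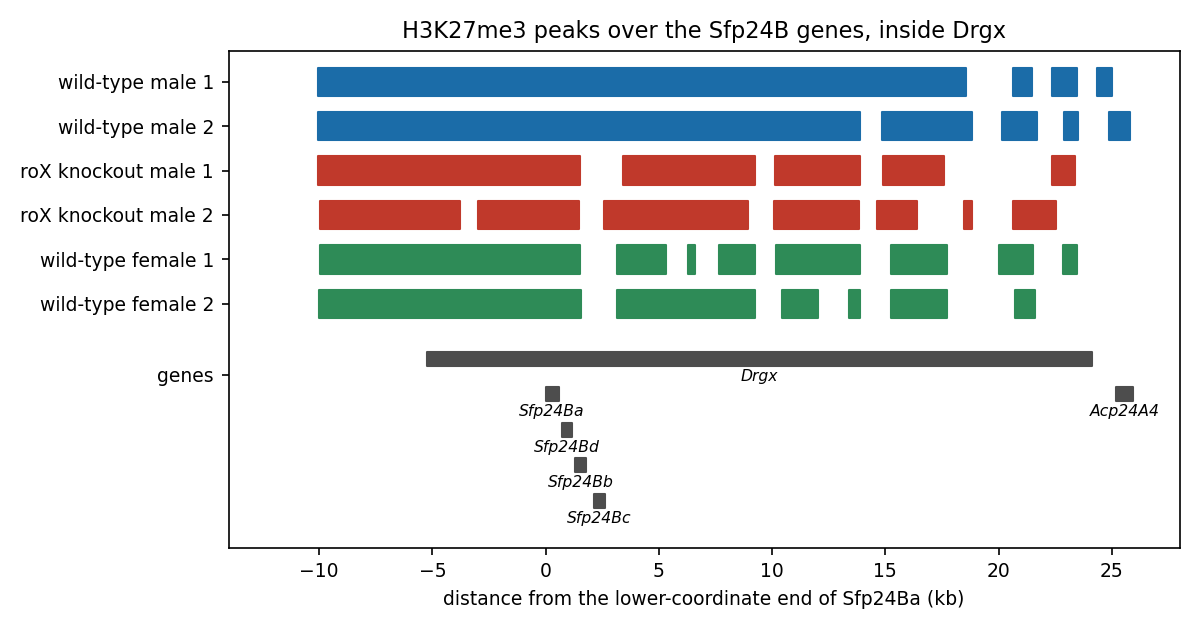
Peaks (coloured bars, 1 row per library) and genes (grey bars) around the Sfp24B row, by distance in kb from the lower-coordinate end of Sfp24Ba on the horizontal axis. One peak spans the 4 Sfp24B genes in each wild-type male library, while in the other 4 libraries the peak ends inside Sfp24Bb and a gap of 1.10 to 1.92 kb follows.

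Sfp87B showed no difference of this kind. Its covered percent was 100 in all 6 libraries, and svp around it was covered over 95.0% in either wild-type male, 94.2% and 85.9% in the roX knockouts and 86.9% and 94.1% in females. The 72.1 kb common to the wild-type male peaks was covered over 96.8% and 91.5% in the knockout males and 88.9% and 94.8% in the females, in 3 and 5 and in 6 and 3 peaks. Gaps opened in this domain too, but none fell on Sfp87B.

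Mst84B (3R, 7062175 to 7064370) sat at the edge of the widest domain over any of these genes. In wild-type males a single peak of 241 kb (3R, 6822700 to 7064027 in the first library, 6822720 to 7064664 in the second) reached from before Antp, a Hox gene of thoracic identity, through dj and djl, which encode sperm tail proteins, into Mst84B. Mst84B was covered over 84.4% and 100% in wild-type males, 13.3% and 37.4% in the roX knockouts and 77.0% and 16.1% in females. Knockout males were below wild-type males, and of the females one library lay near the wild-type males and the other near the knockout males.

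By limma Mst84B differed by -66.8 points between knockout and wild-type males (SE 24.7, adjusted p = 0.677, n = 2 and 2) and by -45.6 points between females and wild-type males (adjusted p = 0.407), neither of which passed. With only peaks of −log10 q of at least 3 kept, both differences were -92.2 points and passed in limma, at adjusted p = 0.00242 and 0.00273. That q belongs to a whole peak, with 16.9 and 15.9 for the 241 kb peaks of wild-type males. The shorter peaks over Mst84B in the other libraries had 1.46 to 2.85. The filter thus removed all cover of Mst84B there, including the 77.0% of the first female library. Its neighbours dj and djl lay under the same domain. The covered percent of dj was 100 in both wild-type males, 98.9 and 41.2 in the roX knockouts and 32.4 and 33.0 in females, and that of djl was 100 in both wild-type males, 100 and 81.2 in the roX knockouts and 73.1 and 59.4 in females.

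Most of the Antp domain lay under peaks in every library. Of the 241.3 kb common to the wild-type male peaks, 94.0% and 91.5% was covered in knockout males and 90.3% and 89.96% in females, in 9 and 19 and in 18 and 18 peaks. Antp (3R, 6896253 to 6999228) was covered over 100% in both wild-type males, 91.1% and 90.3% in the roX knockouts and 88.8% and 89.1% in females.

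**Figure D4:**
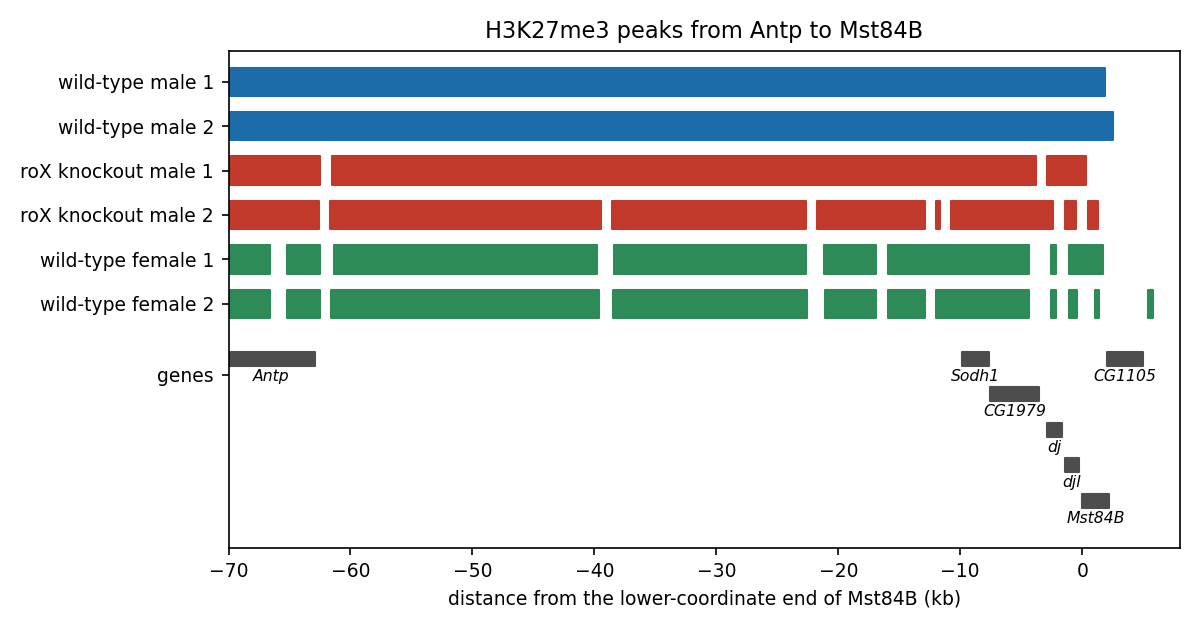
Peaks (coloured bars, 1 row per library) and genes (grey bars) from the end of Antp to Mst84B, by distance in kb from the lower-coordinate end of Mst84B on the horizontal axis. An unbroken peak runs into Mst84B in the wild-type males, and in the other 4 libraries the stretch is cut into several peaks that cover 13.3% to 77.0% of Mst84B.

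Mst98Ca (3R, 28291338 to 28292656) and Mst98Cb (3R, 28292798 to 28293863), neighbouring genes for proteins of the sperm tail, lay under peaks of at most 4257 bp. In the second knockout and the second female library that peak also covered all of the neighbouring gene UQCR-14L. The peaks there were 880 and 1366 bp long in wild-type males, 881 and 3334 bp in the roX knockouts and 2114 and 4257 bp in females. Mst98Cb was covered over 0% and 48.5% in wild-type males, 82.6% and 100% in the roX knockouts and 83.1% and 100% in females. Wild-type males were therefore the lowest for Mst98Cb, though the second library fell just under the 50% limit.

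For Mst98Cb the difference was 67.1 points between knockout and wild-type males (SE 19.9, limma adjusted p = 0.473, n = 2 and 2) and 67.3 points between females and wild-type males (limma adjusted p = 0.158), so neither passed. When the lists were shortened to equal total covered length, both passed, at limma adjusted p = 0.0397 and 0.0245, with differences of 91.3 and 91.6 points. With peaks of −log10 q of at least 3 the 50% rule no longer called it in either comparison. Mst98Ca was covered over 66.7% and 53.7% in wild-type males, 0% and 82.9% in the roX knockouts and 82.4% and 79.6% in females. The knockout males fell on either side of both other groups, and no comparison of Mst98Ca passed in limma (adjusted p of 1, 0.637 and 0.399).

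**Figure D5:**
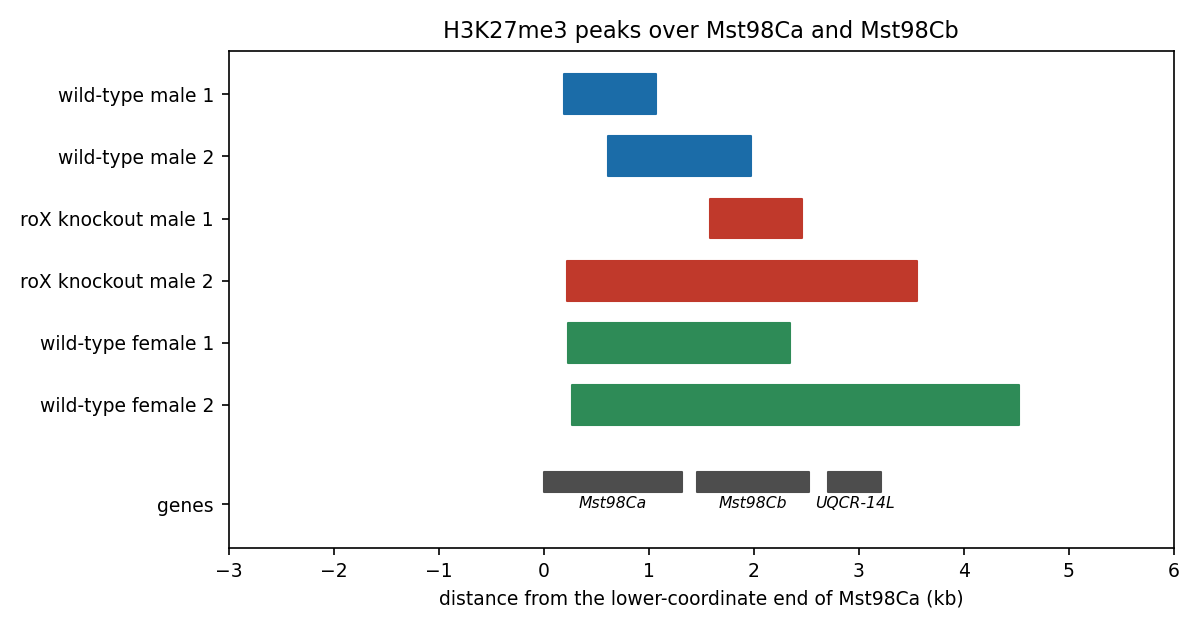
Peaks (coloured bars, 1 row per library) and genes (grey bars) around Mst98Ca and Mst98Cb, by distance in kb from the lower-coordinate end of Mst98Ca on the horizontal axis. Within the span shown each library has one peak, 880 to 4257 bp long, with different ends in the replicates of a group.

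The other 10 genes with a peak were above 0 in 1 or 2 libraries only. In wild-type males they were Acp24A4 (83.9%) and Sfp60F (100%), both in the second library. In knockout males they were Sfp70A4 (100%), Mst84Db (66.7%) and Mst84Da (71.7%), all in the first library. In females they were Mst36Fb (12.8%), Sfp70A4 (100%) and Sfp79B (100%) in the first library and Acp53C14a (55.6%), Acp53C14b (53.1%) and Mst87F (79.95%) in the second.

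No group had both of its libraries above 0 for any of these 10 genes. Mst84Da, Mst84Db and Mst87F encode short structural proteins of the sperm tail. Mst84Da and Mst84Db shared one peak of 830 bp, and Acp53C14a and Acp53C14b one of 988 bp. The Sfp60F peak, 4645 bp long, also covered Ebp and EbpII, genes for proteins of the ejaculatory bulb.

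The 10 genes and the Mst98C pair rested on 15 distinct peaks, with a median length of 988 bp (221 to 4645 bp), an authors' fold of 1.60 to 2.13 and an authors' −log10 q of 1.29 to 3.65. Only 3 of the 15 peaks reached a −log10 q of 3, namely those over Sfp60F in the second wild-type male library (3.65), over the Mst98C pair in the first female library (3.38) and over Mst98Cb in the first knockout library (3.05). In the wild-type male lists the peaks over the Sfp24B row had a −log10 q of 9.06 and 9.67. The peaks over Sfp24Ba had 5.11 and 3.14 in the knockout males and 4.18 and 4.55 in the females. Sfp87B was covered throughout, yet its peaks also had a higher −log10 q in wild-type males, at 12.5 and 12.3. There the values were 4.51 and 3.33 in knockout males and 3.78 and 3.88 in females.

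Set against wild-type males, the knockout males lost the mark over Sfp24Bb, Sfp24Bc and Mst84B and gained it over Mst98Cb by the 50% rule. A gene counted as lost when it was marked in both wild-type and in neither knockout library, and 3 of the 7 genes that could be lost were, compared with 26.3% of the 615 such genes among all. Sfp24Ba, Sfp24Bd, Sfp87B and Mst98Ca were the 4 others. A single gene of the 56 marked in neither wild-type library, Mst98Cb, was gained, against 0.0764% of 13085 genes among all. The 7 genes lie in 4 loci and 2 of the losses stand side by side in one domain, so the count rests on few independent places and was not tested. By limma over the 4990 genes with a peak in any library, 2 of the 18 fitted genes were lower, Sfp24Bb and Sfp24Bc, where 1.38% of all fitted genes were. None was higher at an adjusted p under 0.05, compared with 0.0802% of all, and 1 of the 18, Mst98Cb, was higher at an unadjusted p under 0.05. The median difference was 0 points over the 18 genes and over all fitted genes. Single libraries moved these counts: without the first wild-type male library 5 genes were lost (Acp24A4 and Sfp60F in addition), without the second knockout library 4 were gained and 2 were higher by limma, and without the second wild-type male library 1 was lower by limma.

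Wild-type females, set against wild-type males, had lower covered percents of Sfp24Bb and Sfp24Bc by limma and gained the mark over Mst98Cb by the 50% rule. This comparison shares the wild-type male libraries with the one above, so a likeness between them is partly built in. Of the 7 genes that could be lost 1 was, Sfp24Bc, compared with 10.4% of the 615 such genes, and Sfp24Bb was kept from the count by its 50.7% in one library. One of 56, Mst98Cb, was gained, against 1.09% of 13085 genes. By limma 2 of the 18 fitted genes were lower, Sfp24Bb and Sfp24Bc, against 1.78% of all fitted genes, and none was higher, against 6.91%. Again 1 gene, Mst98Cb, was higher at an unadjusted p under 0.05. The median difference was 0 points over the 18 genes and 7.49 points over all 4990. Of the 18 genes, 9 had a peak in a single library, and the medians were not compared at matched gene length. With only 18 genes, the absence of higher calls was not tested against the share of all. Without the first or the second female library, 2 genes were lost in either case, 4 or 3 were gained and 3 or 2 were higher by limma, and without the first wild-type male library 3 were lost.

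Between wild-type females and knockout males no gene of the 65 changed by either rule. Of the 4 genes that could be lost (Sfp24Ba, Sfp24Bd, Sfp87B and Mst98Cb) none was, compared with 4.2% of 357 genes among all, and of 57 that could be gained none was, compared with 1.75% of 13283. By limma none of the 18 was lower, against 0.822% of all fitted genes, and none was higher, against 8.4%, with 0 genes in either direction at an unadjusted p under 0.05. Median differences were 0.117 points over the 18 genes and 9.37 points over all fitted genes, again not compared at matched gene length. The largest difference by limma was 50 points at Sfp79B, from one female library, at an adjusted p of 0.399. Without the second knockout library 2 genes were lost, the same 2 were lower by limma (Mst84Da and Mst84Db), and Mst98Ca was gained and higher. Without the first or the second female library 4 or 2 genes were gained and 4 or 2 were higher by limma.

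Genes of related function outside the naming rule were looked at in 3 lists. Their counts of marked genes stand beside shares of 3.10% to 8.51% of all protein-coding genes in the 6 libraries. The first held 34 other genes of the seminal fluid and the sex peptide network, with 2 and 3 marked genes in the wild-type male, 2 and 1 in the knockout and 3 and 4 in the female libraries. Ebp, the gene of a mating plug protein made in the ejaculatory bulb (2R, 25175126 to 25176715), was covered over 100% in both wild-type males, 39.9% and 0% in the roX knockouts and 42.8% and 13.8% in females. It was 1 of 2 genes that could be lost and was lost in both comparisons with wild-type males, where 26.3% and 10.4% of all such genes were. So small a count cannot be told from that background. The gene antr, of the sex peptide network, was covered over 0% in both wild-type males, 0% and 28.6% in the roX knockouts and 100% and 79.7% in females. It was gained in females against both male groups. Of all genes that could be gained, 1.09% were gained against wild-type males and 1.75% against knockout males. By limma antr was the only one of the 19 fitted genes of this list to change, higher in females than in wild-type males, as were 6.91% of all fitted genes.

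In the second list, 51 genes of the testis programme, marked genes numbered 6 and 5 in the wild-type male, 7 and 4 in the knockout and 7 and 12 in the female libraries. None of the 5 that could be lost in knockout males was, beside 26.3% of all such genes, and none was gained. In females against wild-type males 1 of the 5, dj, was lost (10.4% of all such genes), and S-Lap4, a sperm leucyl aminopeptidase gene, p-cup and zpg, a gap junction gene of the germ line, were gained (1.09% of all genes). S-Lap4 was covered over 0% in all 4 male libraries and 83.0% and 53.0% in females, and it was the only one of the 29 fitted genes of the list to pass in limma, in females against knockout males, where 8.4% of all fitted genes were higher. The gene fzo, a mitofusin of the spermatid, was at 100% in all 6 libraries.

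The last list, of 22 egg genes (yolk, vitelline membrane and chorion), served as the female counterpart. Its marked genes numbered 5 and 6 in the wild-type male libraries, 0 in both knockout libraries, and 7 in both female libraries, where the shares over all genes were those given above (3.10% to 8.51%). All 5 that could be lost in knockout males were lost, Cp7Fa, Cp7Fb, Cp7Fc, Cp36 and Cp38, which are chorion genes of one locus on X, compared with 26.3% of the 615 such genes among all. They stand within one stretch (X, 8470888 to 8483311), so they are not independent evidence of 5 changes. The calls by limma given next fall in the same stretch, and the list was chosen with earlier results of these data known. Cp7Fa was covered over 100% in both wild-type males, 0% in both knockout males and 100% in both females. By limma 4 of the 12 that were fitted (Cp7Fa, Cp7Fb, Cp7Fc and Cp36) were lower in knockout than in wild-type males, where 1.38% of all fitted genes were, and none was higher. Females against knockout males, a comparison that shares the knockout libraries, had 6 gains (1.75% of all genes that could be gained), and by limma these 4 genes were higher (8.4% of all fitted genes). In females 1 gene, Cp19, was gained against wild-type males (1.09% of all genes that could be gained), with no call by limma. The 5 chorion genes lost in knockout males are on X, while none of the 65 genes is, and whether position matters was not tested.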

How the data were processed

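H3K27me3 was measured in 6 immunoprecipitated libraries of larvae of the third instar, grouped by the sample titles; the 3 inputs did not enter. Tools named in the submitters' processing notes are deepTools 3.5.1, Picard, SAMtools 1.13, Bowtie2 2.4.5 and Trimmomatic 0.39, with build dm6. For the peak caller and for how inputs entered the calling, the answer is not given in the sources used here. Peaks were called per sample, since a list of broad peaks was deposited for each library. The deposited columns are a display score, a fold enrichment (ratio), and −log10 p and −log10 q values, all the authors' own. The lowest deposited −log10 q was 1.00. Deposited lists without counts leave depth unknown, and a deeper library can yield more weak peaks.

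Peaks were merged per library and laid over the gene bodies of the Release 6 gene table (Python 3.11.15, numpy 2.4.6, pandas 2.3.3). The covered percent was fitted with limma 3.58.1 in R 4.3.3 for genes above 0 in any of the 6 libraries, with 3 groups and no covariate, and p-values were adjusted by Benjamini-Hochberg over all 4990 genes. Losses and gains by the 50% rule have no p-value. Overlap and fit were tested on simulated data. The values simulated for the fit were not held within the limits of the scale and drew their noise from all fitted genes pooled. They therefore do not vouch for the p-values of genes that sit at those limits. Named are all genes lost, gained, called by limma or marked in all 6 libraries, then those with the largest group differences, and from the 3 lists those lost, gained or called, at most 8 a list. Some genes without a peak, neighbours of named genes, and fzo and EbpII were added after their values were seen. The genes and lists were chosen with earlier results of these data known. Same-numbered replicates did not deviate together (correlations of -0.035, -0.007 and 0.020 across genes), so numbers were not used as pairs.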

Additional observations from a re-analysis of the deposited data

How the results depend on the processing

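Alternatives tried were a −log10 q of at least 3, a fold of at least 1.5, gaps of 1 kb joined, equal covered length, 1 kb flanks, 20% and 80% limits, a filter of 10% in 2 libraries, each library left out, fits of 4 libraries and the replicate number as a block. The gap that begins inside Sfp24Bb was 1.10 to 1.92 kb wide in knockout males and females. Joining gaps of 1 kb could not close it, so that setting could not change the calls of Sfp24Bb and Sfp24Bc. Losses in knockout males numbered 1 with flanks (Mst84B) and 1 at the 20% limit (Sfp24Bc), 2 with gaps of 1 kb joined (without Mst84B), and 3 to 5 without single libraries (5 without wild-type male replicate 1). Gains there were 0 with −log10 q of at least 3, with flanks and at 20%, and 1 to 4 without single libraries (4 without knockout replicate 2). Lower calls by limma were 1 under the replicate block (Sfp24Bc; Sfp24Bb had a limma adjusted p of 0.0614), and 1 to 3 without single libraries; higher calls were 1 with equal length (Mst98Cb) and 0 to 2 without single libraries. In females against wild-type males, losses were 2 with −log10 q of at least 3, 3 at 80% and 1 to 3 without single libraries. Gains were 0 with −log10 q of at least 3 and at 20%, 2 with equal length and with flanks, and 1 to 4 without single libraries. Higher calls by limma were 1 with equal length and 0 to 3 without single libraries. In females against knockout males, leaving out single libraries gave 0 to 2 losses, 0 to 4 gains, 0 to 2 lower and 0 to 4 higher calls by limma. Such fits assume that the lone library varies like the other groups, and without a female library up to 45.97% of genes had no spread, so their p-values are of little use.

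Genes marked fell with −log10 q of at least 3 to 4 and 3 in knockout males and 5 and 4 in females, with flanks to 3 in the first knockout library, and at 80% to 4 in the second female library. Differences changed sign for Mst98Ca in knockout against wild-type males (41.4 points with equal length, 8.83 with flanks, and -60.2 to 22.7 without single libraries) and for Sfp24Bb in females against knockout males with flanks (-2.70). In the latter comparison, leaving out single libraries gave ranges across 0 for Mst84B (-9.29 to 51.7), Mst98Ca (-1.86 to 81.0) and Mst98Cb (-8.44 to 8.91, with -8.21 without female replicate 2). The cause was not tested. Other single-gene differences neither changed sign nor crossed the threshold in 389 cases, some of which fell to 0, lost the call in 6 and gained it in 25. Over all genes the block lowered the lower and higher calls by limma from 69 and 4 to 22 and 2, from 89 and 345 to 20 and 84, and from 41 and 419 to 7 and 154. The fit with no filter on low values had 65.1% of genes without spread, which limma reports as unreliable, and is not given. Depth is unknown for all 6 libraries, so a covered percent of 0 cannot be told from a mark too weak to be called.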
